A study of Mus musculus with 2 samples.

Results

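Melanocortin signalling was examined at 9 genes, of 21887 protein-coding genes on the nuclear chromosomes. These are the receptors Mc4r and Mc3r, the receptor accessory protein Mrap2, the G protein gene Gnas and the adenylyl cyclase gene Adcy3. The others are Pcsk1 and Cpe, whose enzymes process the ligand precursor, and the transcription factor gene Creb1 with its coactivator gene Crtc1. The genes were chosen by name for their role, with earlier results of these data known, and located on the mm10 build. Every Otp and IgG region whose summit, its point of highest signal, lay inside one of them or within 100 kb was assigned to it. This gave 27 of 11379 Otp regions and 1 of 291 IgG regions.

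In CUT&RUN, a nuclease is brought to a chromatin protein by an antibody, and the DNA fragments cut free around it are sequenced. The libraries were made from PVN nuclei (the paraventricular nucleus, a hypothalamic centre of appetite control) of mice labelled WT. The antibody was against Otp, a homeodomain protein whose full name is Orthopedia, in 1 library and was IgG, without a target, in the other. The series describes the tissue as adult, and the labels give the cell type as neurons and describe isolation of nuclei through a sucrose cushion. Exact age, sex and the number of animals per library are not given. The lists hold DNA signal and no RNA, so the labelled cell type was not checked against markers. With 1 library per group, no value below has a replicate check and no test between the groups was possible.

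In the PVN, melanocortin peptides made from the precursor Pomc activate Mc4r, which restrains food intake, while Agrp opposes them. The receptor couples through the stimulatory G protein to adenylyl cyclase, and the rise in cyclic AMP activates protein kinase A. The kinase phosphorylates Creb1, and coactivators of the Crtc family join Creb1 at cyclic AMP response elements (CREs) in DNA. Mutations of Mc4r, Pcsk1, Cpe or Adcy3 can cause obesity in mice. The series asks whether Otp binds at the Mc4r promoter.

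An Otp region lay at the start of Pcsk1, Creb1 and Crtc1, and these promoters are shown because they are the members' own regulatory DNA covered in part by an Otp region. The sequences are from RefSeq (GRCm38.p6, the assembly that mm10 denotes), run from 250 bases before the annotated start to 30 bases after it on the strand of the gene, and have the part covered by the Otp region in capitals. They lie at chr13:75089607-75089886 (plus strand), chr1:64532554-64532833 (plus strand) and chr8:70439544-70439823 (minus strand).
Pcsk1: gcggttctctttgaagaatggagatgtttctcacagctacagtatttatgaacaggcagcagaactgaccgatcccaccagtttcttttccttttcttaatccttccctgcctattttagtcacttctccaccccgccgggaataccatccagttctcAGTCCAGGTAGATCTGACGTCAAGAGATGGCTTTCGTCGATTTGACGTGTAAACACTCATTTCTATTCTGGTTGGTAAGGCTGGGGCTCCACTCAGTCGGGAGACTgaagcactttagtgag
Creb1: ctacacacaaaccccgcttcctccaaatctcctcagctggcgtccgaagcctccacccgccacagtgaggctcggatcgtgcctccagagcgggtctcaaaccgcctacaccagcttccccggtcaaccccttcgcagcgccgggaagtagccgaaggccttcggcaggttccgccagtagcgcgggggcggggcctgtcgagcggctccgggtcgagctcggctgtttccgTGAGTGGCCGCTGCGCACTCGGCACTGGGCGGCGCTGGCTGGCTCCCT
Crtc1: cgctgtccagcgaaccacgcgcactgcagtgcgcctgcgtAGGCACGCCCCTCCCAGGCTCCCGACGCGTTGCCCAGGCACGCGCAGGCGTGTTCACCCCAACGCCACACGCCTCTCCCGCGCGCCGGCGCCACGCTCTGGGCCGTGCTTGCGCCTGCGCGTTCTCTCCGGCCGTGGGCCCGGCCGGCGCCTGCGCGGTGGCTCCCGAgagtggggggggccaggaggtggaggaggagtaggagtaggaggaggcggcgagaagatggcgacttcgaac
The Pcsk1 region covered its start from 92 bp before to 13 bp after. That of Crtc1 lay wholly before the start, from 210 to 43 bp, and that of Creb1 ran from 18 bp before to 122 bp after, so that it continues past the printed bases.

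Of the 9 members, 4 had an Otp region with its summit within 1 kb of an end: Mc4r, Pcsk1, Creb1 and Crtc1. Over all protein-coding genes the share was 27.2%. The share among genes in the same decile of gene length, averaged over the 9 members, was 30.6%, which corresponds to 2.76 of 9 genes. Inside the gene, 6 of 9 members held a summit, against 18.9% of all genes and 24.1% of genes of like length. For Pcsk1, Creb1 and Crtc1 this was the same region as at the end, so this count is not separate from the first. Only Gnas, Adcy3 and Cpe held one deeper inside. The Pcsk1 and Crtc1 summits lay inside the outer bounds of the gene but before the annotated start used above. All 9 had a region inside or within 100 kb, as did 74.5% of all genes. At the members' ends there was no IgG region (0.379% of all genes had one), and 1 had one within 100 kb (2.86% of all genes did). Mc4r is the gene the series was designed around. With the −log10 q, the authors' confidence after correction for multiple tests, required to reach 5, 2 members (Mc4r and Creb1) were left with a region at an end, against 23.3% of all genes. At 10 none was, against 13.4% of all genes, while 2 members (Gnas and Cpe) held such a region inside, against 6.67%.

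**Figure D1:**
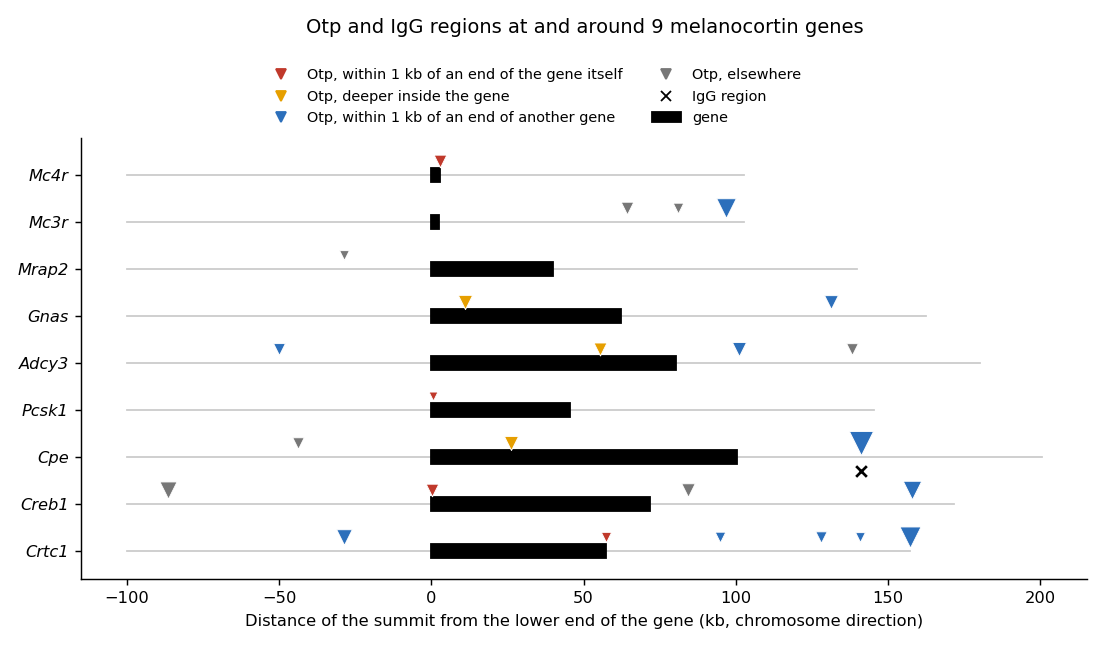
Otp regions (triangles, larger with a higher −log10 q and coloured by position) and IgG regions (crosses) along the 9 genes (black bars, to scale); the x axis is the distance in kb from the lower end of each gene in chromosome direction, and the grey line is the window searched. The regions at the genes' own ends are at Mc4r, Pcsk1, Creb1 and Crtc1, and the sole IgG region lies beyond Cpe.

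Among the receptors, Mc4r and Mc3r differed in where the nearest Otp region lay. Mc4r (gene ID 17202, chr18:66857705-66860487) is a short gene of 2783 bp with no protein-coding neighbour in its window. Its single region, chr18:66860511-66860593, is 83 bp wide and lay from 106 to 24 bp before the gene's start, which is its upper end. The summit was 62 bp before the start. The deposited fold enrichment, the summit signal relative to the background that the peak caller estimated, was 7.51, and the pileup was 11 tags (95% Poisson interval 5.49 to 19.7; a tag is a read or fragment). The nearest other protein-coding gene end was that of Gnal, an olfactory and striatal relative of Gnas, 227749 bp away.

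Mc3r (gene ID 17201, chr2:172248492-172251114), the receptor better known for energy partitioning, had no region within 60 kb although it is nearly the same length. Its 3 regions all lay beyond its upper end, which by the RefSeq promoter table is downstream of the gene. At 61565 bp the region chr2:172312555-172312724 had a fold enrichment of 7.41 and 11 tags (5.49 to 19.7), the same pileup as at Mc4r. The region 78290 bp away had 8 tags (3.45 to 15.8). At 94354 bp, chr2:172345304-172345610 had a fold enrichment of 11.6 and 27 tags (17.8 to 39.3), but its summit was 102 bp from an end of Fam210b and so at the start of another gene.

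Mrap2 (gene ID 244958, chr9:87144236-87184051) encodes the accessory protein that modulates Mc4r. It had a single region, chr9:87115608-87115706, which lay 28560 bp before the gene, with a fold enrichment of 5.14 and 9 tags (4.12 to 17.1). It ranked 10088 of 11379 by −log10 q (3.80). No region lay inside Mrap2 or at an end of it.

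Gnas and Adcy3, which carry the receptor signal to cyclic AMP, each held a region inside the gene and none at an end. Gnas (gene ID 14683, chr2:174284320-174346744) is an imprinted locus with several promoters, of which the most upstream makes the secretory protein Nesp55 and the most downstream the stimulatory G protein subunit itself. Its region chr2:174295462-174295546 had a fold enrichment of 8.80 and 13 tags (6.92 to 22.2). The summit was 11163 bp from the most upstream annotated start and 34523 bp from the most downstream one. It lay 47 bp outside the upper end of Gnasas1 (chr2:174281237-174295436), the antisense RNA also called Nespas. Because Gnas is on the plus strand, that end is the start of the antisense RNA, which is known to begin at the imprinting control region of the locus. The other Gnas region was 69002 bp beyond the gene and 58 bp from an end of Nelfcd, a subunit of the negative elongation factor, with 12 tags.

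Adcy3 (gene ID 104111, chr12:4133116-4213525), the cyclase of neuronal primary cilia, had 5 regions. That inside the gene, chr12:4188388-4188470, lay 25125 bp from the upper end and 6998 bp from an end of Cenpo, with a fold enrichment of 7.81 and 11 tags (5.49 to 19.7). The table has no exons, so whether it falls in an exon or intron was not determined here. Of the other 4, 3 lay at ends of Dnajc27, Ptrhd1 and Cenpo with 13, 16 and 18 tags. The last pair lies 20520 and 20805 bp beyond Adcy3, where Cenpo, a centromere protein gene, and Ptrhd1 overlap at their ends. The fifth region was inside Ncoa1, a nuclear receptor coactivator gene, with 10 tags.

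The enzymes that process the ligand precursor also differed from each other. Pcsk1 (gene ID 18548, chr13:75089420-75134861) encodes the prohormone convertase that makes the first cuts in Pomc. Its only region, chr13:75089765-75089870, had the lowest pileup and −log10 q around any member, with 7 tags (2.81 to 14.4) and 2.86 (rank 11063). Its fold enrichment was 4.70. The summit lay 68 bp before the annotated start of transcription. No protein-coding gene had an end within 100 kb, and the nearest was Cast at 280915 bp.

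Cpe (gene ID 12876, chr8:64592542-64693109), the carboxypeptidase that trims the cut peptides, had no region at an end but one deep inside, chr8:64618647-64618825. This region had a fold enrichment of 8.26 and 15 tags (8.40 to 24.7), with the summit 26249 bp from the lower end. A region 43907 bp below the gene had 9 tags. The strongest region around any member lay 40589 bp above Cpe, with 40 tags (28.6 to 54.5), a fold enrichment of 13.9 and a −log10 q of 33.6, rank 496. Its summit was 120 bp before the start of Msmo1, an enzyme of cholesterol synthesis. The only IgG region, chr8:64733613-64733688, lay within it, with a fold enrichment of 5.50 over 5 tags (1.62 to 11.7).

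Both nuclear members had a region at the start. Creb1 (gene ID 12912, chr1:64532794-64604548) had 14 tags (7.65 to 23.5) and a fold enrichment of 6.86 at chr1:64532786-64532926, with the summit 42 bp after the start. The summit thus lies just past the printed bases. A region with a higher pileup, chr1:64446145-64446302, was 86572 bp before Creb1, at a fold enrichment of 11.1 (18 tags, 10.7 to 28.4). Its nearest other protein-coding gene end, of Mettl21a, was 160251 bp away, and the pseudogene Gm28980 was 8137 bp away. The remaining Creb1 regions lay inside Mettl21a, a methyltransferase gene, 486 bp after an annotated start of it, with 15 tags, and 289 bp from an end of Ccnyl1, with 21 tags. The latter summit was nearer, at 93 bp, to the start of the non-coding gene 2810408I11Rik.

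Crtc1 (gene ID 382056, chr8:70382352-70439702), which encodes a cyclic AMP-responsive coactivator of Creb1, had 7 regions, the most of any member. Its own, chr8:70439616-70439783, had 10 tags (4.80 to 18.4) and a fold enrichment of 5.46, with the summit 83 bp before the start. The other 6 were all at ends of other genes. Those described here lay at Upf1 of nonsense-mediated decay with 20 tags, Klhl26 with 12, Kxd1 with 11 and the elongation factor gene Ell with 16 and 40. Both Ell summits, 825 and 172 bp from an end of Ell, were nearer to an end of the non-coding gene Gm51534, at 679 and 26 bp.

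**Figure D2:**
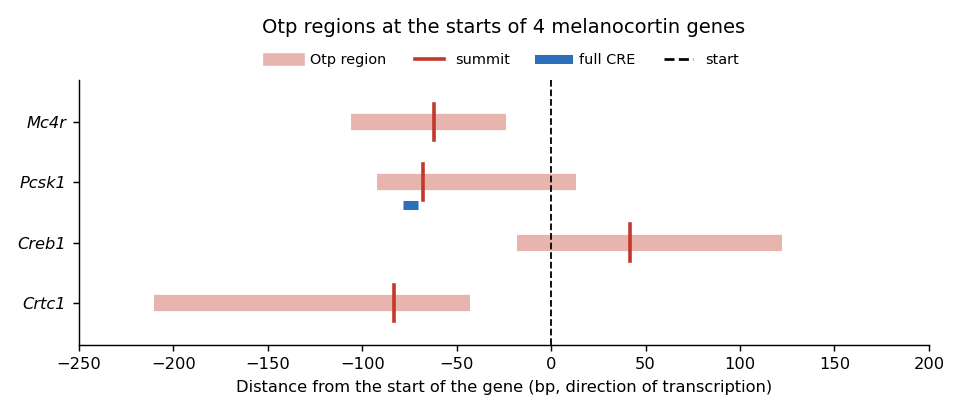
Extent of the Otp region (pale bar) and its summit (red line) around the start of Mc4r, Pcsk1, Creb1 and Crtc1, in bp along the direction of transcription, with the full CRE of Pcsk1 in blue; the start is from the RefSeq promoter table except for Mc4r, where it is the upper end of the gene. The summits lie 62, 68 and 83 bp before the starts of Mc4r, Pcsk1 and Crtc1 and 42 bp after that of Creb1.

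The members' own end regions ranked below the middle of all Otp regions at gene ends. The median −log10 q of all 5527 Otp regions up to 1 kb from an end of a protein-coding gene was 9.34 (interquartile range 5.98 to 15.7), and all 4 lay below it. Of those regions, 39.3% had a lower −log10 q than Mc4r (7.86), 38.6% than Creb1 (7.74), 12.05% than Crtc1 (4.49) and 1.85% than Pcsk1 (2.86). The 3 regions deeper inside members ranged from 8.36 to 10.5 and from 11 to 15 tags. The 13 regions at ends of other genes ranged from 3.77 to 33.6, with a median of 9.52 and of 16 tags. These 13 made up 48.1% of the 27 (95% exact binomial interval 28.7 to 68.1%). Over the windows of all protein-coding genes the share was 51.7%, where a region is counted once for each gene whose window holds it.

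Few of these pileups could be compared with the control. The Otp library had a genome background of 0.512 tags against 0.0873 tags for IgG, and the weakest nuclear IgG region with a pileup had 4 tags. On the ratio of the backgrounds, an Otp pileup of 23.5 tags corresponds to 4 IgG tags. This was exceeded at 3 of the 27 regions, those at Msmo1, Ell and Fam210b, and 1 of the 3 had an IgG region. The interval at Fam210b (17.8 to 39.3) includes 23.5. The median IgG-to-Otp ratio where the lists overlap was 0.294, over 209 nuclear Otp regions. By it, 4 IgG tags correspond to 13.6 Otp tags, which 13 of 27 regions exceeded. This ratio comes only from places where an IgG region was called, so it is selected for high IgG signal. Among the members' own end regions only Creb1 exceeded 13.6, with 14 tags. Its interval (7.65 to 23.5) includes 13.6, so a difference from IgG was not established there either. At Mc4r, Pcsk1 and Crtc1 a difference from IgG was not detectable at this depth by either scaling.

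**Figure D3:**
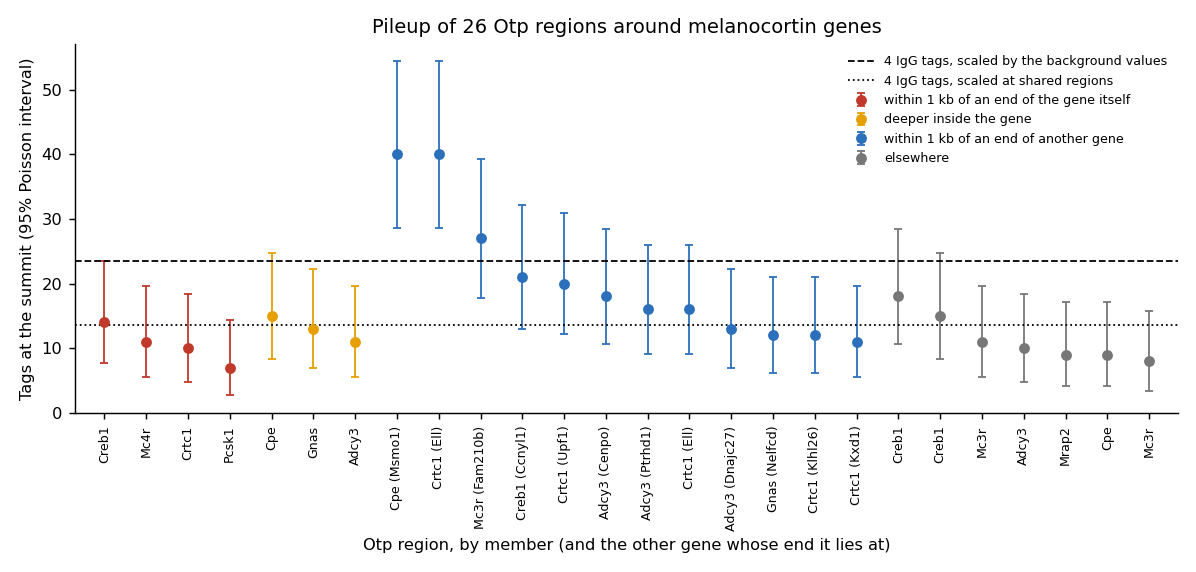
Tags at the summit of 26 of the 27 Otp regions with the 95% Poisson interval (counting error only), by member and, in brackets, the other gene at whose end the region lies; the lines mark the Otp pileup that corresponds to 4 IgG tags, 23.5 by the background values (dashed) and 13.6 at shared regions (dotted). The regions at the members' own ends hold 7 to 14 tags, and only 3 regions, all at other genes, lie above the dashed line.

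Compared with genes of like length, 3 members had more Otp regions in their window than the upper quartile. Each member was set against the 2187 or 2188 other genes in its decile of length. Genes of the length of Mc4r and Mc3r had a median of 2 regions (interquartile range 0 to 4), and those of the longer members had a median of 2 (1 to 3). Crtc1 with 7 regions, Adcy3 with 5 and Creb1 with 4 lay above this range. As many or more regions were found around 1.51%, 8.64% and 19.4% of genes of their length. Mc4r, Mrap2 and Pcsk1 had 1 region each, and 68.6%, 82.3% and 82.3% of genes of their length had at least that many.

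The number of neighbouring genes was high for 2 of these 3 members. Crtc1 had 15 protein-coding neighbours in its window and Adcy3 had 5, against a median of 3 for genes of their length, but Creb1 had 2. Mc3r, with its 3 regions, had 1 neighbour against a median of 6 for its length, and Mc4r and Pcsk1 had 0. Over all protein-coding genes, the median count was 0 regions with no neighbour, 2 with 3 to 5 neighbours and 4 with 11 or more. Among 36 genes like Crtc1 in both length and number of neighbours, the median was 4 regions (3 to 5). For Adcy3 (684 genes) it was 2 (1 to 4), against its 5 regions. Among such genes for Mc3r (511 genes) it was 0 (0 to 1), against its 3 regions, and for Creb1 (1087 genes) it was 1 (1 to 3), against its 4. The part of gene density in the counts was not tested further.

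**Figure D4:**
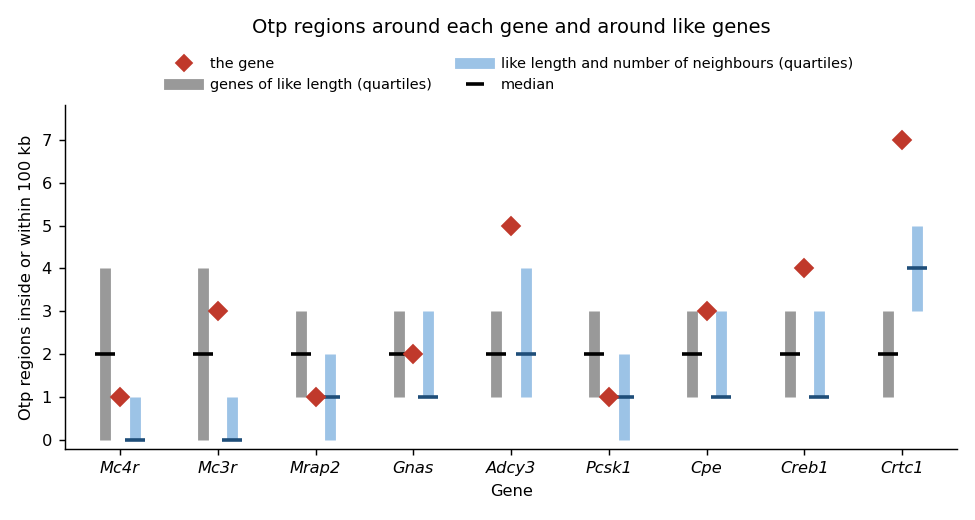
Number of Otp regions inside or within 100 kb of each member (diamonds), beside the quartiles and median over protein-coding genes of like length (grey) and of like length and number of neighbours (blue). Crtc1 with 7 regions, Adcy3 with 5 and Creb1 with 4 lie above both ranges, and Mc3r with 3 lies above the blue range alone. Regions with summits close together, as occur around Crtc1 and Adcy3, are counted singly.

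The promoter table held 7 of the 9 members, with 11 promoter windows of 300 bases (250 before to 50 after a start), since Gnas has 4 starts and Adcy3 has 2. Mc4r and Cpe had no entry. An Otp summit lay in a window of 3 of the 7 genes (Pcsk1, Creb1 and Crtc1), against 24.9% of all protein-coding genes in the table. The nearest summit to a start was 11163 bp away for Gnas, 28630 bp for Mrap2, 50450 bp for Adcy3 and 64187 bp for Mc3r.

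Windows rich in CpG, the dinucleotide that is depleted outside CpG islands, held a summit more often in the whole table. At an observed-to-expected CpG ratio of 0.6 or more, 39.4% of 10137 windows held one (38.5 to 40.4%), against 6.25% of 11126 windows below it (5.80 to 6.71%). Of the 11 member windows, 9 were above 0.6, and 3 of these 9 held a summit. The 9 windows are not independent, since they belong to 6 genes and 4 of them to Gnas. By gene, 3 of the 6 had a summit. The ratio was 1.04 at Crtc1, 0.876 at Creb1 and 0.721 at Pcsk1. Some windows with no summit had a ratio above that of Pcsk1, at 0.934 for the first Adcy3 start, 0.815 for Mrap2 and 0.839 for the Gnas start of the G protein subunit. None reached the ratio of Crtc1. Mc3r was just below 0.6, at 0.580, and the second Adcy3 start was at 0.329.

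**Figure D5:**
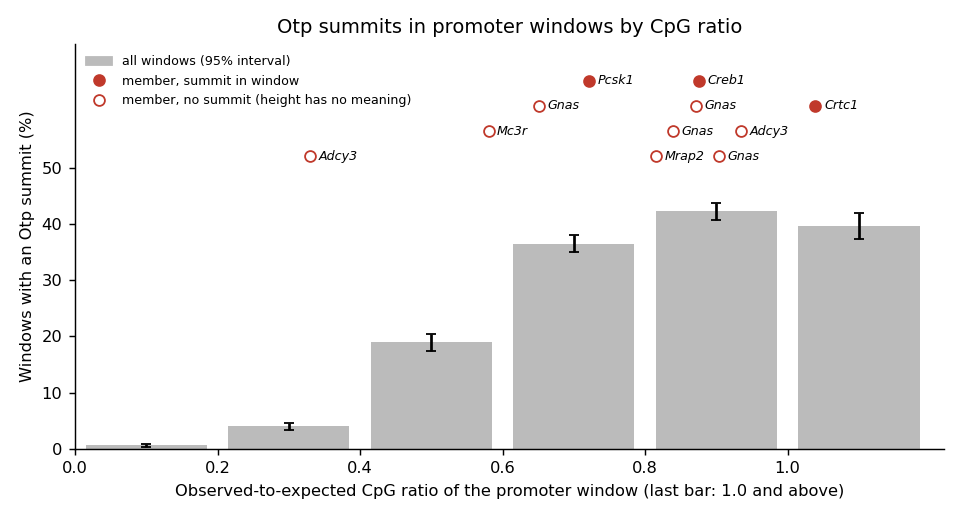
Share of RefSeq promoter windows of protein-coding genes that hold an Otp summit, by class of observed-to-expected CpG ratio (bars, with 95% exact binomial intervals), and the ratio of the 11 member windows (circles, filled with a summit; their height has no meaning). The share is 0.596% below a ratio of 0.2 and 42.2% from 0.8 to 1.0, and member windows with and without a summit lie side by side from 0.6 upwards.

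Sequence motifs were searched in the 11 member windows: TAATTA, the core bound by many homeodomain proteins, TGACGTCA, the full CRE, and CACGTG, the E-box. Each reads the same on both strands, and TGACGTCA and CACGTG can share bases. The only match was a full CRE in Pcsk1, at bases 78 to 71 before the start. It is inside the Otp region, within the capitals of the printed sequence, and its nearer end is 71 bp and the summit 68 bp before the start. Of all windows of protein-coding genes, 2.23% held a full CRE. The share was 3.43% with an Otp summit (2.93 to 3.99%) and 1.89% without (1.69 to 2.11%). In windows with a CpG ratio of 0.6 or more, to which Pcsk1 belongs, the shares were 3.60% (3.05 to 4.23%) and 3.79% (3.33 to 4.30%), with intervals that overlap. Below 0.6 they were 2.45% (1.43 to 3.89%) and 0.777% (0.617 to 0.964%), with intervals that do not overlap. CACGTG was in 7.84% of all windows, in 11.1% with a summit (10.2 to 12.1%) and in 6.90% without (6.52 to 7.30%). Its shares with and without a summit were 11.8% and 11.1% at a CpG ratio of 0.6 or more, and 7.34% (5.51 to 9.54%) and 4.41% (4.02 to 4.82%) below it. TAATTA was in 4.53% of all windows, in 2.30% with a summit (1.89 to 2.77%) and in 5.17% without (4.83 to 5.51%). With and without a summit its shares were 1.83% and 2.15% at a ratio of 0.6 or more. Below that ratio they were 5.04% (3.53 to 6.93%) and 6.94% (6.46 to 7.45%).

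Around the members, 54 other genes of the pathway were examined by role. Of these, 23 had an Otp region within 1 kb of an end (42.6%, 29.2 to 56.8%), against the 27.2% of all protein-coding genes and 29.7% of genes of like length. The list was chosen with earlier results of these data known, so the share is a description, and its interval is not a test of an excess. None of the 54 had an IgG region at an end. Fold enrichments ranged from 4.22 to 11.2 with a median of 7.42. Pileups, known for all but Gnb1, ranged from 6 to 28 tags. The summit was within 250 bp of the gene's own annotated start for 12 of the 16 with an entry in the promoter table, and for 2 of the 23 it was nearer to another gene.

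Of the ligand and processing genes, 5 of 7 had a region at an end, which is what is counted for each role here. Each role count stands beside the 27.2% of all protein-coding genes with such a region. With 3 to 9 genes per role, a difference of a role from that share was not tested. The convertase Pcsk2, partner of Pcsk1 in Pomc processing, had 13 tags (6.92 to 22.2) with the summit 62 bp before its start, and its chaperone Scg5 had 11 tags with the summit 5 bp before. The carboxypeptidase Cpd, a relative of Cpe, had 15 tags at 149 bp before its start. Agrp had 27 tags, but the summit was 98 bp from an end of Atp6v0d1. The agouti gene a, a melanocortin antagonist of skin, had 16 tags at 108 bp from its far end. Pomc itself and Pam, the amidating enzyme, had none at an end, though 2 lay inside Pam.

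Of the other receptors and accessory proteins 2 of 6 had a region at an end, the attractin gene Atrn (10 tags) and the ubiquitin ligase gene Mgrn1 (12 tags), which are coat colour genes acting with agouti. Mc1r, Mc2r, Mc5r and Mrap had none at an end. Of the G protein genes 5 of 7 had one there: Gnai2 (23 tags), Gna11 (17 tags), Gnaq (8 tags), Gnal (6 tags) and Gnb1 (fold enrichment 5.05). The Gnal summit lay 974 bp beyond the upper end of the gene. None of the 7 other cyclase genes had a region at an end, nor did Adcy3, against 27.2% of all protein-coding genes.

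Of the kinase and phosphodiesterase genes 3 of 9 had a region at an end. The protein kinase A catalytic subunit gene Prkaca led the whole list with 28 tags (18.6 to 40.5), a fold enrichment of 11.2 and a −log10 q of 21.3, with the summit 163 bp before its start. The regulatory subunit gene Prkar1b had 26 tags, with the summit 71 bp before a start of its own and 61 bp from an end of Dnaaf5. Pde10a had 14 tags. Of the desensitisation genes 1 of 3 had one there, the arrestin gene Arrb2, at a fold enrichment of 10.5 (27 tags, 17.8 to 39.3). Prkaca, Prkar1b, Arrb2 and Agrp exceeded 23.5 tags, and none of their regions overlapped an IgG region.

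Of the nuclear genes 4 of 8 had a region at an end. These were the second coactivator of the family, Crtc2 (19 tags, 11.4 to 29.7), Crem, a CREB relative (19 tags), and the kinases Sik1 (15 tags) and Sik2 (12 tags), which hold Crtc proteins in the cytoplasm. Crtc3, Atf1, Crebbp and Ep300 had none at an end. Of the downstream effectors 3 of 7 had one there: Ntrk2, the receptor for Bdnf (14 tags), the transcription factor Sim1 (12 tags) and Trh (12 tags). The Trh summit lay 688 bp beyond the far end of the gene, 3277 bp after its annotated start. Bdnf, Kcnj13, Oxt and Crh had none at an end. A −log10 q of at least 10 was reached at an end by 8 of the 54 genes, against 13.4% of all genes.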

How the data were processed

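CUT&RUN peak lists of 1 Otp and 1 IgG library of the mouse PVN were used as deposited. The submitters' processing notes name Trimmomatic, Bowtie2, Picard, SAMtools, MACS2 and mm10; no versions or settings are given in the sources used here, nor whether peaks were called against a control. The authors' fold enrichment is a ratio at the summit over the caller's background, and both the −log10 p and the −log10 q are as the authors deposited them. The deposited display score was not used. Total depth is unknown. The members and gene lists were chosen with earlier results of these data known.

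Each pileup is the whole number that gives the deposited fold (pileup plus 1 over background plus 1) and −log10 p (Poisson tail) within 0.001; 98.3% of nuclear Otp regions had one, and the calculation was tested on simulated data. The lowest background shared by 3 or more regions was taken as the genome background. Gene positions and promoters came from RefSeq tables of GRCm38.p6. The gene table has no strand or exons, and the strand of Mc4r is general knowledge. The 1282 overlapping promoter windows of opposite strand matched as reverse complements. Genes of like length share a decile of length, and like numbers of neighbours differ by at most 1 or 20%. Mitochondrial regions were left out. Summits were assigned within 100 kb, gene ends within 1 kb, and lists overlapped by at least 1 bp. Intervals are 95% Poisson or exact binomial and reflect counting error alone, because there is 1 library per group. PCR copies of 1 molecule are not independent, so the Poisson intervals are too narrow where tags include such copies. Described genes are the 9 members, listed pathway genes with a region at an end, and the nearest other gene of each region; pathway genes named as lacking a region, the pileups, the CpG classes, the pairing on neighbours and the nearness of Gnasas1 were chosen after values were seen. Further values of 1 of the 27 regions, near Crtc1, are not reported here. Agouti is listed under the symbol a. Alternatives were stricter thresholds and other windows, overlaps and matching. Python 3.11.15, numpy 2.4.6, scipy 1.17.1, pandas 2.3.3 and matplotlib 3.10.9 were used.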

Additional observations from a re-analysis of the deposited data

How the results depend on the processing

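A −log10 q of at least 5 left 2 members with an Otp region at an end (Mc4r and Creb1), and a −log10 q of at least 10 left 0. At 10, the regions around members fell from 27 to 9, the members with a region inside from 6 to 2 (Gnas and Cpe) and the other pathway genes with one at an end from 23 to 8. At 5 and at 10 the IgG regions around members numbered 0, and the share of Otp regions around members that overlap an IgG region was 0%. It was 3.70% (1 of 27) without a threshold. The share fell because the threshold was also applied to IgG and removed its only region (−log10 q 4.26). The Otp region at Msmo1 that overlaps it (33.6) passed both thresholds. With a reciprocal overlap of 50% the share was also 0%. A window of 50 kb held 15 regions. The other 31 of 42 values under alternatives stayed within 1.5 times the count or within the interval of the share. With the 500 genes nearest in length, the share with a region at an end was 23.4% for Mc4r in place of 19.6%, and for the other members it ranged from 20.0% for Mc3r to 36.6% for Gnas. With so low an IgG background, regions of few tags cannot be compared with the control. No paired analysis was possible because there is a single library of each kind, which also left none to omit.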
